A study of Mus musculus with 12 samples.

Results

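The integrins and laminins are the genes that encode the subunits of the main cell-surface receptors for extracellular matrix and of 1 of their main matrix ligands. Members were every gene listed as an integrin α chain (Itga), an integrin β chain (Itgb) or a laminin α, β or γ chain (Lama, Lamb, Lamc), which gave 37 of the 24108 genes in the count table: 18 integrin α, 8 integrin β, 5 laminin α, 3 laminin β and 3 laminin γ genes. Expression was measured by bulk RNA-seq of neural stem/progenitor cells (NPCs) from the subventricular zone (SVZ) of C57BL/6 mice at postnatal day 9 to 12. The 12 libraries form 4 groups of 3, all kept for 48 h: co-cultures of p53-/- NPCs, co-cultures of p53+/+ NPCs, p53-/- NPCs alone and, last, p53+/+ NPCs alone. Co-cultured NPCs grew on a monolayer of primary mouse brain microvascular endothelial cells (bmvECs) and were removed by selective trypsinization. NPCs alone grew on plates coated with laminin, itself a ligand of several members, so that contact with bmvECs and absence of the laminin coat cannot be told apart here. The methods describe p53 loss as infection of NPCs carrying loxP-flanked p53 with an adenovirus that drives Cre from the ubiquitous CMV promoter, with a virus carrying the promoter alone as control, whereas the labels call the p53+/+ cells wild type. The column headers number the 3 libraries of a group 17_9, 25_9 and 1_10, called experiments here since the study's table key pairs equal numbers.

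An integrin is a pair of 1 α and 1 β chain that spans the membrane, binds matrix or counter-receptors outside the cell and links to actin inside it through talin, kindlin and the kinase FAK. The β1 chain pairs with the most α chains, and the pairs α3β1, α6β1, α7β1 and α6β4 are the classical laminin receptors, whereas the αv chain pairs with several β chains to bind RGD-containing ligands such as vitronectin and fibronectin and to release latent TGFβ. A laminin is a cross-shaped trimer of 1 α, 1 β and 1 γ chain in basement membranes, and in the SVZ both blood vessels and the branched structures called fractones are rich in it. Neural stem cells of the SVZ are known to touch vessels through α6β1.

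The libraries held 16509710 to 22245224 counts. Trp53 was at 11.7 to 19.3 CPM (counts relative to library size, scaled by TMM) in the 6 p53-/- libraries and at 61.8 to 109 CPM in the 6 p53+/+ libraries, with no overlap. The NPC transcription factor Sox2 was at 108 to 272 CPM in all libraries. Other NPC markers moved: of 14 NPC and type-B markers, co-culture had 2 called higher, 3 lower and 9 not called in each genotype. Gfap averaged 7020 CPM in p53-/- co-cultures, against 292 CPM alone, and 13072 CPM in p53+/+ co-cultures, against 556 CPM alone. Nes was called lower, with a log2 fold change of -0.66 in p53-/- and -0.96 in p53+/+. The 14 markers summed to 15959 to 29093 CPM in co-culture and 10926 to 15358 CPM alone. The endothelial genes Pecam1 and Cdh5 were at 8.13 to 18.0 and 18.8 to 37.2 CPM in co-culture, against at most 0.484 and 0.0993 CPM alone, where Cdh5 was at 0 in 3 libraries. The summed level of 24 endothelial markers was 197 to 220 CPM in p53-/- co-cultures, 191 to 272 CPM in p53+/+ co-cultures, 68.8 to 108 CPM in p53-/- NPCs alone and 55.5 to 69.9 CPM in p53+/+ NPCs alone. Of 22 such markers tested, 18 were called higher in co-culture in p53-/- and 21 in p53+/+, and none was called lower. Of all genes, 18.8% and 21.2% were called higher. Markers near 0 alone, such as Cdh5 and Pecam1, passed a low-count filter through co-culture libraries. Their calls thus do not stand apart from the filter. A fit that also took in the experiment of each library called 1 lower in p53-/-. Cd93 went the other way without being called, with a log2 fold change of -0.43 in p53-/- and -0.18 in p53+/+. It made up much of the sums in NPCs alone, at 30.0 to 58.9 CPM in p53-/- and 18.3 to 28.6 CPM in p53+/+. Most endothelial markers thus moved with co-culture. The part of endothelial RNA in the integrin and laminin values below was not tested. In bulk samples fewer cells of a type and less RNA per cell cannot be told apart. Leukocyte genes were low, with Ptprc at 0 to 0.490 CPM and a summed level of 15 markers of 12.2 to 18.8 CPM in co-culture and 4.55 to 12.3 CPM alone. The 2 libraries of NPCs alone from experiment 17_9 stood apart in the summed level of 15 mural and fibroblast markers. It was 1277 CPM in p53-/- and 824 CPM in p53+/+, against 158 to 294 CPM in the other 10 libraries. Of these sums the contractile gene Acta2 held 765 and 431 CPM. Not all of the markers stood apart: Notch3 was at 34.1 and 110 CPM there, against 54.8 to 199 CPM in the other libraries. Pdgfrb was at 2.91 and 1.56 CPM, against 1.02 to 11.5 CPM. Whether such cells were present was not tested.

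The low-count filter kept 27 members, 18 integrins and 9 laminins, and only these were tested. The 10 removed were Itga11, Itgad, Itgae, Itgal, Itgam, Itgax, Itgb6, Itgb7, Lamb3 and Lamc3, none with more than 14 counts in a library. They include the α chains of the leukocyte integrins, Itgad, Itgal, Itgam and Itgax. Lamc3 summed to 22 counts over the 6 co-culture libraries, against 3 over the 6 alone, and Itgb7 to 18 counts, against 4. Lamb3 went the other way, with 27 counts against 37, and Itgax had 16 in each.

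The levels per length of the members, as CPM per kb of exon, show which receptor and ligand transcripts these libraries held. Levels in co-culture libraries can include bmvEC RNA, whose part was not tested. Itgb1 led the β chains with 227 ± 29.7 CPM per kb in p53-/- co-cultures, 228 ± 22.7 in p53+/+ co-cultures, 290 ± 33.2 alone in p53-/- NPCs and 301 ± 44.3 alone in p53+/+ NPCs (SD, n = 3), a share of 78.0% to 83.5% of all β chain levels. Itgb5 and Itgb8, partners of αv, came next with 31.3 to 46.8 and 15.4 to 25.8 CPM per kb as group means. Among α chains, 3 stood above the rest in every group: the laminin-binding Itga6 and Itga7 and the RGD-binding Itgav, with group means of 53.9 to 80.6, 37.5 to 58.3 and 46.9 to 82.8 CPM per kb. Their order changed with the group. Itga6 held the top share in p53-/- NPCs, 35.8% ± 3.4 in co-culture and 41.8% ± 4.5 alone, Itgav held it in p53+/+ NPCs alone with 41.1% ± 6.3, and in p53+/+ co-cultures Itga7 (29.2% ± 5.1), Itga6 (28.5% ± 3.0) and Itgav (27.7% ± 2.7) differed by less than their SD. Itga5, the fibronectin receptor chain, followed with 12.5 to 16.5 CPM per kb, and each other α chain was at most 4.29 as a group mean.

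**Figure D1:**
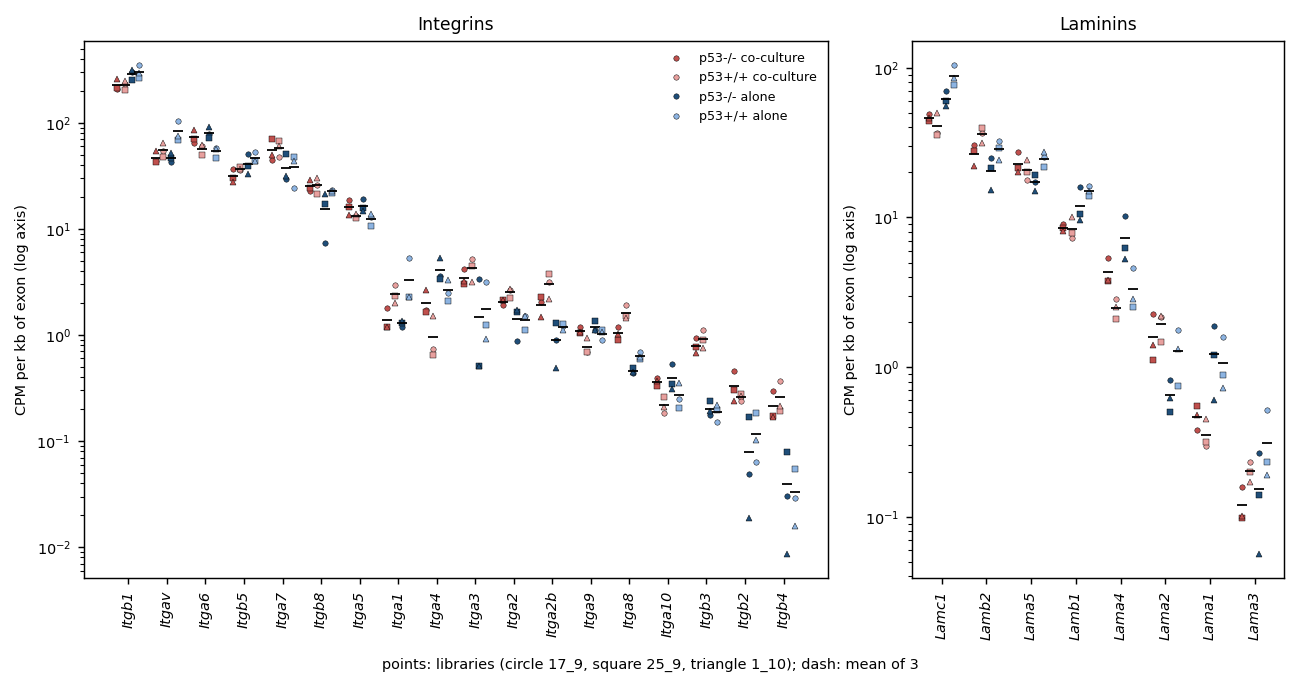
Level of the 18 tested integrins (left) and 8 of the tested laminins (right) in CPM per kb of exon on a log axis, with 1 point per library, colors for the 4 groups and a dash for the mean of 3. Itgb1 and Lamc1 stand at the top of their panels in every group, and Itgb4 and Itgb2 have the lowest means among the integrins in NPCs alone.

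Among laminins, 1 chain of each class dominated: Lama5 with 65.5% to 80.8% of the α chains, Lamb2 with 63.0% to 80.9% of the β chains and Lamc1 with 98.2% to 98.7% of the γ chains, as group means. These are the chains of laminin-521. Lama4, an α chain typical of vessel walls, was second among α chains. Its share was 14.6% ± 0.6 in p53-/- co-cultures, 9.78% ± 2.1 in p53+/+ co-cultures, 27.0% ± 5.7 alone in p53-/- NPCs and 10.7% ± 2.5 alone in p53+/+ NPCs, so that p53-/- NPCs alone stood above the other groups. The share of Lamb1 was 24.4% ± 2.3 in p53-/- co-cultures, against 36.8% ± 3.3 in p53-/- NPCs alone, and 19.1% ± 4.4 in p53+/+ co-cultures, against 34.7% ± 3.2 in p53+/+ NPCs alone.

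Co-culture against alone asks how contact with bmvECs, in place of the laminin coat, goes with expression. In p53-/- NPCs, 6 of 27 members were called higher (Itga2b, Itga8, Itgb2, Itgb3, Itgb4 and Lama2) and 4 lower (Itga4, Lama1, Lama4 and Lamb1), at an adjusted p under 0.05 in the quasi-likelihood test of edgeR. Of all 13745 genes tested, 18.8% were higher and 17% lower. In p53+/+ NPCs, 5 members were higher (Itga2, Itga2b, Itga8, Itgb3 and Itgb4) and 6 lower (Itga4, Itgav, Itgb1, Lama1, Lamb1 and Lamc1), against 21.2% and 18.3% of all genes. The shares of members called were thus near those of all genes. The median log2 fold change of the members was -0.0038 in p53-/- and -0.25 in p53+/+, against -0.012 and 0.00050 over all genes. Of the integrins tested, 5 were higher and 1 lower in p53-/- and 5 higher and 3 lower in p53+/+, whereas of the laminins 1 was higher and 3 lower in p53-/- and 0 higher and 3 lower in p53+/+. With the experiment number as a block, 12 members were higher and 7 lower in p53-/- (24.3% and 23.2% of all genes), and 9 higher and 8 lower in p53+/+ (26.2% and 24.1%). DESeq2 with the block called as many, against 23.9% and 23.3% of all genes in p53-/- and 25.4% and 24.1% in p53+/+.

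**Figure D2:**
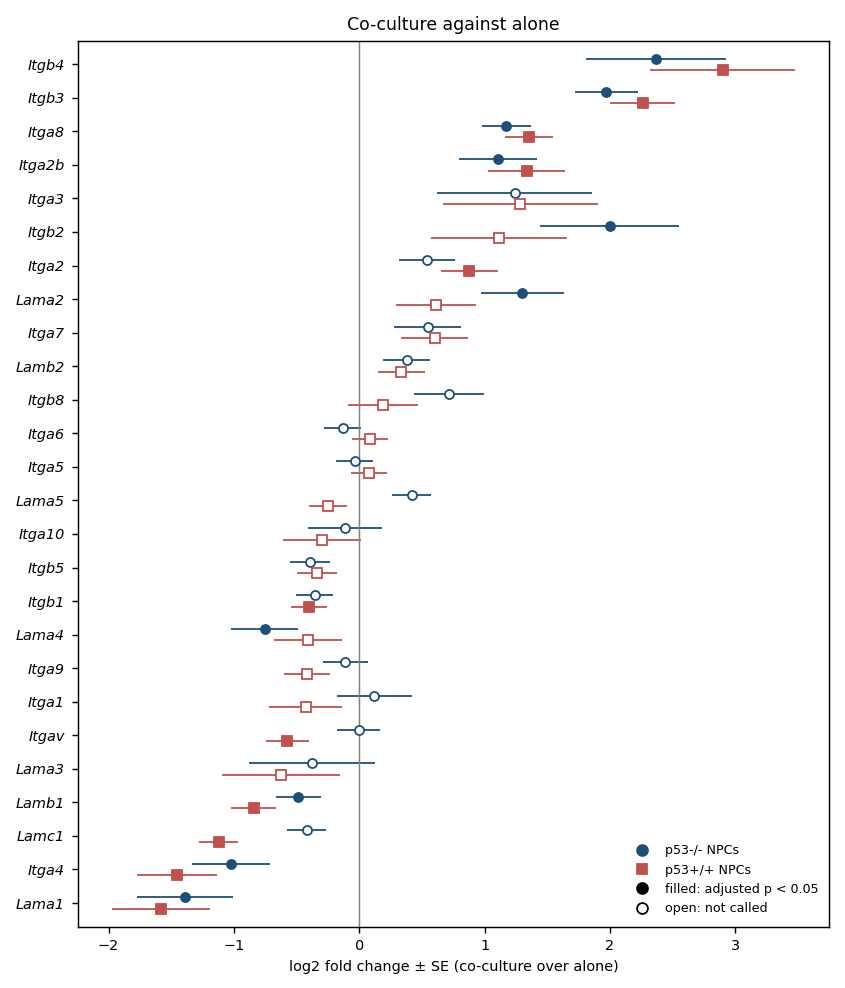
Log2 fold change ± SE of co-culture over alone for 26 of the tested members, ordered by the value in p53+/+ NPCs, with circles for p53-/- and squares for p53+/+ and filled symbols where the adjusted p was under 0.05. Itgb4 and Itgb3 stand at the top in p53+/+ with 2.90 and 2.26, and Lama1 at the bottom with -1.58.

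The integrins that rose most were low-level β chains. Itgb3, which pairs with αv and αIIb and binds vitronectin and fibrinogen, was at 5.41, 4.47 and 3.90 CPM in p53-/- co-cultures (experiments 17_9, 25_9 and 1_10, an order kept below), against 1.02, 1.37 and 1.11 CPM in p53-/- NPCs alone. The p53+/+ values were 6.37, 5.23 and 4.32 CPM in co-culture, against 0.875, 1.14 and 1.27 CPM alone. All 6 co-culture libraries lay above all 6 libraries alone, and the log2 fold change was 1.97 ± 0.25 (adjusted p = 0.000129) in p53-/- and 2.26 ± 0.26 (adjusted p = 3.76e-05) in p53+/+. It kept both calls in all 15 fits that left out 1 library or 1 experiment.

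Itgb4, the α6 partner of hemidesmosomes, rose from near the limit of counting. Itgb4 and Itgb2 had at most 11 counts in any library of NPCs alone and passed the low-count filter through co-culture libraries. Their entry to the test thus depended on the groups where they were high, and their calls do not stand apart from the filter. For Itgb4 the counts were as follows. It had 38, 22 and 20 counts in p53-/- co-cultures (1.90, 1.10 and 1.08 CPM), against 4, 11 and 1 counts in p53-/- NPCs alone (0.194, 0.501 and 0.0555 CPM). In p53+/+ it had 43, 27 and 26 counts in co-culture (2.34, 1.23 and 1.37 CPM), against 3, 7 and 2 counts alone (0.187, 0.347 and 0.102 CPM). The groups did not overlap in either genotype. The log2 fold change was 2.37 ± 0.56 (adjusted p = 0.00602) in p53-/- and 2.90 ± 0.58 (adjusted p = 0.00186) in p53+/+. In p53-/- the call was lost without experiment 17_9 (1.89, adjusted p = 0.0786). Itgb2, the β chain of leukocyte integrins, was at 1.35, 0.904 and 0.705 CPM in p53-/- co-cultures, against 0.145, 0.501 and 0.0555 CPM in p53-/- NPCs alone (2.00 ± 0.56, adjusted p = 0.0143). In p53+/+ it was at 0.708, 0.819 and 0.790 CPM in co-culture and 0.187, 0.546 and 0.305 CPM alone (1.11 ± 0.54, adjusted p = 0.121), without overlap but not called. The p53-/- call of Itgb2 was lost without the co-culture library of experiment 17_9 (1.70), without the alone library of 17_9 (1.73), without experiment 17_9 (1.45) and without experiment 1_10 (1.78).

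**Figure D3:**
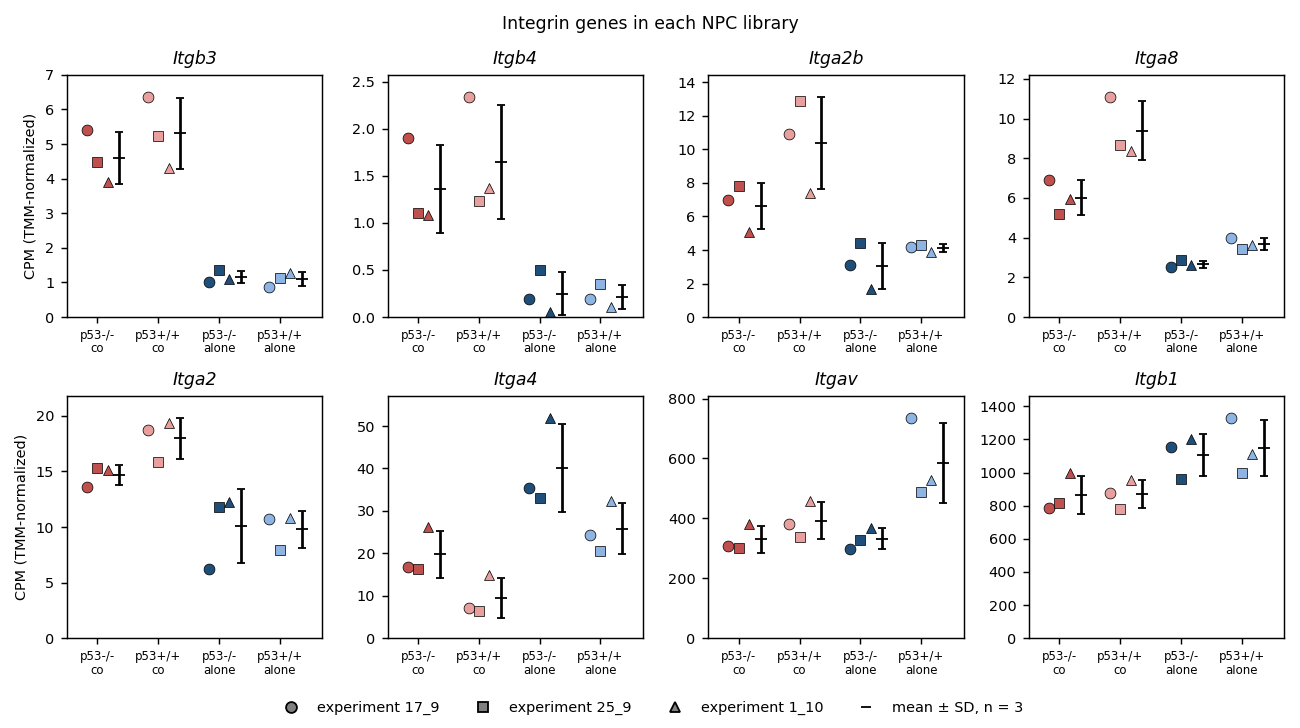
CPM of 8 integrin genes in each library, with a column for each group, a symbol for each experiment and the mean ± SD (n = 3) beside the points. For Itgb3 and Itgb4 the co-culture points lie above every point of the NPCs alone, and for Itgav the p53+/+ NPCs alone lie highest, at 487 to 736 CPM.

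Among α chains, 3 were called higher without the block, Itga8 and Itga2b in both genotypes and Itga2 in p53+/+ only. Itga8, an RGD-binding partner of β1, was at 6.91, 5.17 and 5.96 CPM in p53-/- co-cultures, against 2.52, 2.87 and 2.61 CPM in p53-/- NPCs alone. Its p53+/+ levels were 11.1, 8.69 and 8.37 CPM in co-culture, against 4.0, 3.43 and 3.61 CPM alone. The log2 fold changes were 1.17 ± 0.20 (adjusted p = 0.000801) in p53-/- and 1.35 ± 0.19 (adjusted p = 0.000186) in p53+/+, and both calls held in all 15 fits without a library or an experiment. Itga2b, the αIIb chain known as the platelet partner of β3, was at 6.96, 7.83 and 5.09 CPM in p53-/- co-cultures, against 3.10, 4.42 and 1.66 CPM in p53-/- NPCs alone (1.11 ± 0.31, adjusted p = 0.0155). In p53+/+ it was at 10.9, 12.9 and 7.43 CPM in co-culture, against 4.19, 4.32 and 3.86 CPM alone (1.33 ± 0.31, adjusted p = 0.00443). Its co-culture libraries lay above those alone in both genotypes. The p53-/- call was lost without the co-culture library of experiment 17_9 (1.06) or 25_9 (0.97), without the alone library of 1_10 (0.80) and without experiment 17_9 (1.08), and the p53+/+ call without experiment 25_9 (1.19). Itga2, a collagen and laminin receptor chain, averaged 18.0 ± 1.87 CPM in p53+/+ co-cultures and 9.78 ± 1.64 CPM in p53+/+ NPCs alone (0.88 ± 0.23, adjusted p = 0.00858). This call was lost without experiment 25_9 (0.83, adjusted p = 0.0963) or 1_10 (0.88, adjusted p = 0.0520). In p53-/- its log2 fold change was 0.54 ± 0.23 (adjusted p = 0.0785), called with the block (0.56, adjusted p = 0.0442).

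The integrin that fell most was Itga4, which pairs with β1 to bind fibronectin and Vcam1. It was at 16.8, 16.2 and 26.2 CPM in p53-/- co-cultures, against 35.5, 33.0 and 52.0 CPM in p53-/- NPCs alone (-1.02 ± 0.31, adjusted p = 0.0209). In p53+/+ it was at 7.19, 6.32 and 14.8 CPM in co-culture, against 24.3, 20.6 and 32.4 CPM alone (-1.45 ± 0.32, adjusted p = 0.00332). Experiment 1_10 was highest in all 4 groups, and every co-culture library lay below its own genotype alone. The p53+/+ call held in all 15 fits, and the p53-/- call was lost without the co-culture library of 17_9 (-0.93) or 25_9 (-0.90), without the alone library of 1_10 (-0.81) and without experiment 17_9 (-0.99) or 25_9 (-1.03). Itgav was at 382, 337 and 457 CPM in p53+/+ co-cultures, against 736, 487 and 529 CPM in p53+/+ NPCs alone (-0.57 ± 0.17, adjusted p = 0.0180), whereas in p53-/- it was at 309, 301 and 382 CPM in co-culture and 299, 327 and 369 CPM alone (-0.0038 ± 0.17, adjusted p = 0.989). The p53+/+ call of Itgav was lost without the co-culture library of 17_9 (-0.54) or 25_9 (-0.46), without the alone library of 17_9 (-0.38), and without experiment 17_9 (-0.34) or 25_9 (-0.59), and the difference between genotypes was 0.57 ± 0.24 on the log2 scale (interaction, adjusted p = 0.700). Itgb1, at a log2 fold change of -0.40 ± 0.14 (adjusted p = 0.0426), averaged 870 ± 86.7 CPM in p53+/+ co-cultures and 1148 ± 169 CPM in p53+/+ NPCs alone. In p53-/- it was at -0.36 ± 0.14 (adjusted p = 0.0695), called with the block (-0.35, adjusted p = 0.0219). The p53+/+ call of Itgb1 was lost in 7 of 15 fits: without the p53-/- co-culture library of 25_9 (-0.40), the p53+/+ co-culture library of 17_9 (-0.39) or 25_9 (-0.32), the p53+/+ alone library of 17_9 (-0.28) or 1_10 (-0.42), and without experiment 17_9 (-0.27) or 25_9 (-0.42), and also with a minimum of 10 counts in every library (-0.37).

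The laminin genes called lower in co-culture were Lama1, Lamb1 and Lama4 in p53-/- and Lama1, Lamb1 and Lamc1 in p53+/+. Lama1, the α1 chain known from early basement membranes, was at 3.60, 5.22 and 4.55 CPM in p53-/- co-cultures, against 17.9, 11.4 and 5.71 CPM in p53-/- NPCs alone (-1.39 ± 0.38, adjusted p = 0.0136). Its p53+/+ levels were 2.83, 3.00 and 4.27 CPM in co-culture, against 15.1, 8.44 and 6.91 CPM alone (-1.58 ± 0.39, adjusted p = 0.00652). All co-culture libraries lay below all libraries alone, and the 2 highest values were those of NPCs alone from experiment 17_9. Lama1 lost its p53-/- call without the co-culture library of 17_9 (-1.26), without the alone library of 17_9 (-0.95), and without experiment 17_9 (-0.80) or 25_9 (-1.53), and its p53+/+ call without experiment 25_9 (-1.62), with a value of -1.07 that was still called without experiment 17_9.

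Lamb1 averaged 50.1 ± 2.73 CPM in p53-/- co-cultures and 70.2 ± 20.0 CPM in p53-/- NPCs alone (-0.49 ± 0.18, adjusted p = 0.0486). In p53+/+ it averaged 49.0 ± 8.63 CPM in co-culture and 87.9 ± 6.49 CPM alone (-0.84 ± 0.18, adjusted p = 0.00281). The p53-/- value of Lamb1 leaned on 1 library: with the alone library of 17_9 left out, which was at 93.1 CPM, it was -0.24 (adjusted p = 0.247), and without experiment 17_9 -0.26. That call was also lost without each p53-/- co-culture library (-0.54, -0.48 and -0.46 for 17_9, 25_9 and 1_10), the p53+/+ co-culture library of 17_9 (-0.46) or 25_9 (-0.46), the p53+/+ alone library of 25_9 (-0.49) or 1_10 (-0.49) and without experiment 25_9 (-0.57), and under library size alone (-0.43), the size factors of DESeq2 (-0.48), a minimum of 10 counts in every library (-0.45) and a fit of the 2 groups alone (-0.48). In p53+/+ the call of Lamb1 was lost without experiment 25_9 (-0.85, adjusted p = 0.0551) only. Lamc1, the γ chain shared by most laminins, was at 279, 272 and 381 CPM in p53+/+ co-cultures, against 793, 585 and 648 CPM in p53+/+ NPCs alone. The log2 fold change was -1.12 ± 0.16 (adjusted p = 0.000162), and the call held in all 15 fits. In p53-/- Lamc1 was at 374, 334 and 352 CPM in co-culture and 532, 459 and 425 CPM alone, again without overlap (-0.42 ± 0.15, adjusted p = 0.0501), and was called with the block (-0.42, adjusted p = 0.0241).

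**Figure D4:**
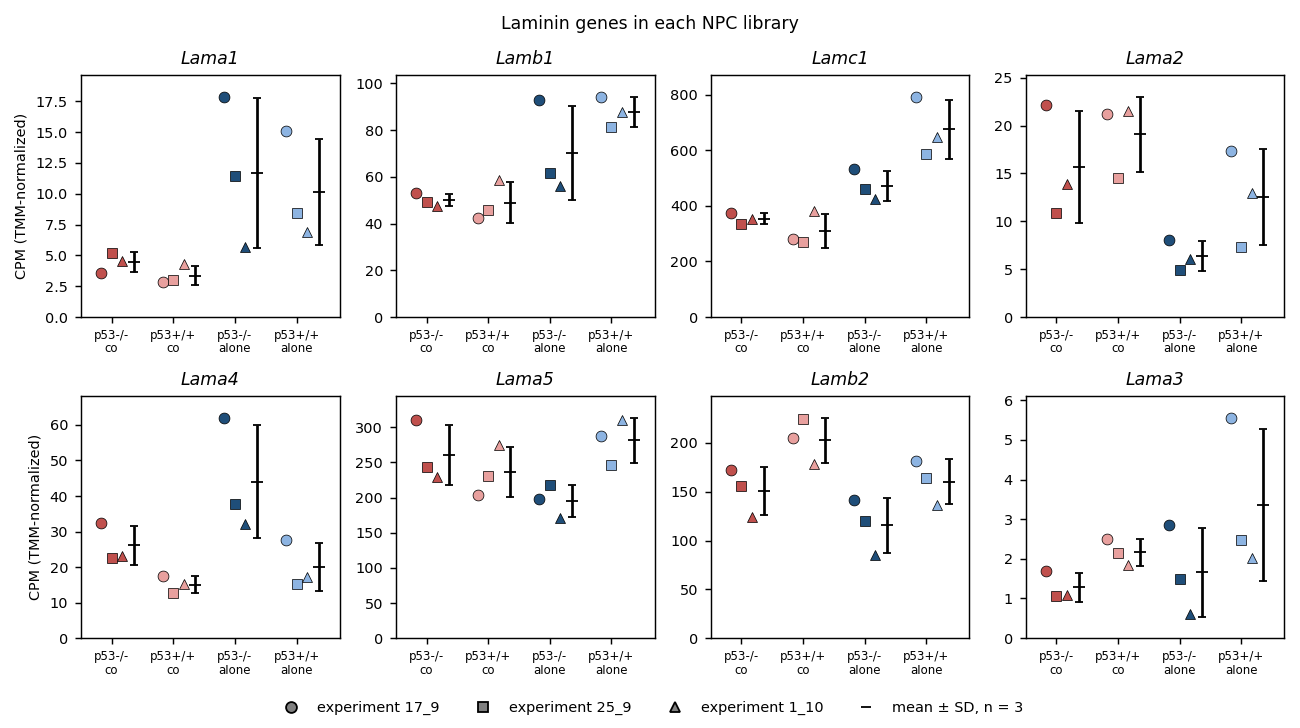
CPM of 8 laminin genes in each library, with a column for each group, a symbol for each experiment and the mean ± SD (n = 3) beside the points. The co-culture points of Lama1 and Lamc1 lie below the points of the same genotype alone, and the mean of Lama4 is highest in the p53-/- NPCs alone, whose lowest library, at 32.1 CPM, lies just under the highest p53-/- co-culture, at 32.3 CPM.

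Of the other laminin α chains, Lama2 was called higher and Lama4 lower in p53-/- co-cultures. Lama2, the chain of muscle and vascular basement membranes whose loss causes a muscular dystrophy, was at 22.2, 10.9 and 13.9 CPM in p53-/- co-cultures, against 8.04, 4.92 and 6.10 CPM in p53-/- NPCs alone (1.30 ± 0.33, adjusted p = 0.00888). The p53+/+ values were 21.2, 14.6 and 21.5 CPM in co-culture and 17.3, 7.35 and 13.0 CPM alone, where the groups overlapped (0.61 ± 0.32, adjusted p = 0.147), and it was called with the block (0.66, adjusted p = 0.00404). Lama2 was higher in co-culture in every experiment. The p53-/- call was lost without the co-culture library of 17_9 (0.96, adjusted p = 0.0506) and without experiment 1_10 (1.37, adjusted p = 0.0510). Lama4 averaged 26.1 ± 5.43 CPM in p53-/- co-cultures and 44.0 ± 15.9 CPM in p53-/- NPCs alone (-0.75 ± 0.27, adjusted p = 0.0432). In p53+/+ its log2 fold change was -0.41 ± 0.27 (adjusted p = 0.252), called with the block (-0.37, adjusted p = 0.0421). The p53-/- call of Lama4 was lost in 8 of 15 fits, with -0.43 without the alone library of 17_9, -0.67 and -0.68 without the co-culture library of 25_9 and of 1_10, -0.72, -0.72 and -0.76 without the p53+/+ co-culture library of 17_9, 25_9 and 1_10, and -0.76 and -0.84 without experiment 25_9 and 1_10. It was also lost under library size alone (-0.69), a minimum of 10 counts in every library (-0.71) and a fit of the 2 groups alone (-0.74).

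Of the other members, some were called only once the experiment number was a block, with the same sign in both genotypes. Itga3, a laminin receptor chain, was at 1.24 ± 0.62 in p53-/- (adjusted p = 0.136, with the block 1.62 and 0.00573) and 1.28 ± 0.62 in p53+/+ (adjusted p = 0.116, with the block 1.48 and 0.00732). Its NPCs alone were at 17.7 and 16.7 CPM in experiment 17_9, against 2.66 to 6.45 CPM in the other experiments. Itga7, the laminin receptor chain best known from muscle, was at 0.55 ± 0.27 in p53-/- (with the block 0.56, adjusted p = 0.00621) and 0.60 ± 0.27 in p53+/+ (with the block 0.64, adjusted p = 0.00256). Lamb2 was at 0.38 ± 0.18 in p53-/- (with the block 0.39, adjusted p = 0.00861) and 0.34 ± 0.18 in p53+/+ (with the block 0.34, adjusted p = 0.0154), and Itgb5 at -0.39 ± 0.16 in p53-/- (with the block -0.39, adjusted p = 0.0156) and -0.34 ± 0.16 in p53+/+ (with the block -0.32, adjusted p = 0.0329). In p53-/- the block also called Itgb8, a TGFβ-activating partner of αv (0.77, adjusted p = 0.0206, without the block 0.71 ± 0.28 and 0.0630), and Lama5 (0.41, adjusted p = 0.0419, without the block 0.42 ± 0.15 and 0.0501). Itgb8 was at 190, 204 and 242 CPM in p53-/- co-cultures, against 61.8, 145 and 180 CPM in p53-/- NPCs alone, with the lowest value in experiment 17_9. The laminin chain Lama3 and the integrins Itga1, Itga5, Itga6, Itga9 and Itga10 were not called in either genotype, with or without the block.

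Of the members called alike in both genotypes, a RefSeq promoter was at hand for Itga2b and Itga8, which rose, and for Itga4 and Lamb1, which fell. Their 250 bases before the start (GRCm38.p6) are shown 5′ to 3′ on the gene's strand, to set genes that moved in opposite directions side by side. Capitals mark a GC box (GGGCGG on either strand, the motif of Sp1-type factors).
Itga2b, chr11:102469884-102470133, minus strand: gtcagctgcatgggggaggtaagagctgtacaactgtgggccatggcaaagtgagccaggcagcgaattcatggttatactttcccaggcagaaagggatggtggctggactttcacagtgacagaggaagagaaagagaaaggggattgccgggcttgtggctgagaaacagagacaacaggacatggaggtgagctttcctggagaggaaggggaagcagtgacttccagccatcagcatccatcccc
Itga8, chr2:12301945-12302194, minus strand: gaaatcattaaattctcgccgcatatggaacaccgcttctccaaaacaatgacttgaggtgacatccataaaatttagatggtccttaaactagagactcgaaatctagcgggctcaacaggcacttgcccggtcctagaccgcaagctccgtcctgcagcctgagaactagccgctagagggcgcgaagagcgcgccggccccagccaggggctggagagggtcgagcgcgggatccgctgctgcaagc
Itga4, chr2:79255176-79255425, plus strand: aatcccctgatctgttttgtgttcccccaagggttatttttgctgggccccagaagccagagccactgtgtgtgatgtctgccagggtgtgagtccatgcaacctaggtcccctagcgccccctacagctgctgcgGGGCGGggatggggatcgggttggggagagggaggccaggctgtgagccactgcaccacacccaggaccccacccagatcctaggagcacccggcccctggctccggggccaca
Lamb1, chr12:31265043-31265292, plus strand: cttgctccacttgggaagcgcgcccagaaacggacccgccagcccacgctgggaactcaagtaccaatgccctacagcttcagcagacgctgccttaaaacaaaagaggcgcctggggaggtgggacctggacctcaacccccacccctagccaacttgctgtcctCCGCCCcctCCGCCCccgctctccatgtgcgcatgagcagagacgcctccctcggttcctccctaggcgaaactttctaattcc
The search held 1 GC box in Itga4, 2 in Lamb1 and 0 in Itga2b and Itga8. Over the 26 promoters of the 23 members that matched the table, 9 had one, against 32.7% of all 32851 promoters. The TATA box (TATAAA, both strands) was in 0 of the 26 (12.4% of all promoters), the AP-1 site (TGANTCA) in 1 (6.75%), the TEAD site (CATTCC, both strands) in 3 (12.6%) and the p53 half-site in 1 (7.13%). The motifs are short and a match describes letters in this window only.

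Comparing p53-/- with p53+/+ NPCs asks what p53 loss goes with in each culture. In co-culture no member was called in either direction by edgeR, where 3.24% of all genes were higher and 4.93% lower. At an unadjusted p under 0.05 there were 9 members (25.3% of all genes), and DESeq2 called 2 higher and 1 lower (5.54% and 7.28% of all genes). With the block 4 were higher (Itga4, Itga6, Itga9 and Lama4) and 4 lower (Itga1, Itga2b, Itga8 and Lamb2), against 9.99% and 10.9% of all genes. Alone, 2 members were higher in p53-/- (Itga6 and Lama4) and 2 lower (Itga1 and Itgav), against 2.02% and 4.27% of all genes, and with the block 3 were higher and 7 lower (7.25% and 9.33%). DESeq2 called 2 higher and 5 lower alone (3.88% and 7.09% of all genes), and with the block 4 higher and 7 lower (8.15% and 10.9%). In co-culture DESeq2 with the block called 3 higher and 4 lower (10.4% and 11.6%). The median log2 fold change of the members was -0.031 in co-culture and -0.27 alone, against 0.024 and 0.054 over all genes.

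**Figure D5:**
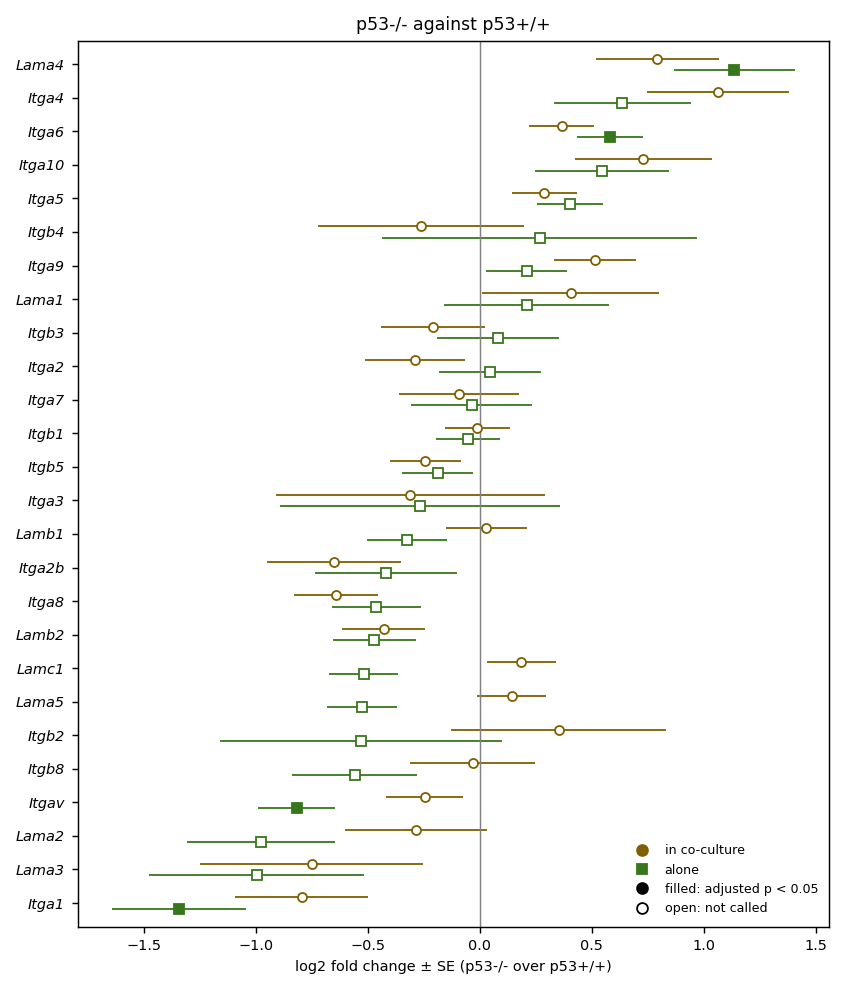
Log2 fold change ± SE of p53-/- over p53+/+ for 26 of the tested members, ordered by the value alone, with circles for co-culture and squares for NPCs alone and filled symbols where the adjusted p was under 0.05. The filled symbols are Lama4 and Itga6 on the right and Itgav and Itga1 on the left, all from NPCs alone.

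Lama4 and Itga6, a vascular laminin chain and the α chain of a laminin receptor, were higher in p53-/- NPCs. In NPCs alone Lama4 was at 62.0, 37.8 and 32.1 CPM in p53-/-, against 27.7, 15.2 and 17.2 CPM in p53+/+ (1.14 ± 0.27, adjusted p = 0.0273). Co-cultures had 32.3, 22.6 and 23.3 CPM in p53-/-, against 17.4, 12.6 and 15.2 CPM in p53+/+ (0.79 ± 0.27, adjusted p = 0.0915, with the block 0.78 and 0.00255). The genotypes did not overlap in either culture. The call alone was lost without the p53-/- alone library of 17_9 (0.81), the p53+/+ alone library of 25_9 (0.97) or 1_10 (1.04) and without experiment 25_9 (1.07) or 1_10 (1.19), and when only the 2 groups compared were fitted (1.11, adjusted p = 0.0953). Itga6 was at 339, 315 and 401 CPM in p53-/- NPCs alone, against 254, 204 and 246 CPM in p53+/+ NPCs alone (0.58 ± 0.15, adjusted p = 0.0348). Co-cultures had 283, 305 and 374 CPM in p53-/-, against 266, 214 and 267 CPM in p53+/+ (0.37 ± 0.15, adjusted p = 0.142, with the block 0.37 and 0.0290). Every p53-/- library of Itga6 lay above the p53+/+ libraries of the same culture. The call of Itga6 was lost in 9 of 15 fits: without the p53-/- co-culture library of 25_9 (0.58), the p53-/- alone library of 17_9 (0.61) or 1_10 (0.44), the p53+/+ alone library of 17_9 (0.64), 25_9 (0.49) or 1_10 (0.62), and without experiment 17_9 (0.65), 25_9 (0.57) or 1_10 (0.48), and in a fit of the 2 groups alone (0.55, adjusted p = 0.0826).

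Itga1 and Itgav were lower. Itga1, a collagen and laminin receptor chain, was at 13.1, 14.3 and 14.9 CPM in p53-/- NPCs alone, against 57.7, 24.9 and 24.9 CPM in p53+/+ NPCs alone (-1.34 ± 0.30, adjusted p = 0.0189). Co-cultures had 19.7, 13.0 and 13.2 CPM in p53-/-, against 32.2, 25.7 and 21.8 CPM in p53+/+ (-0.79 ± 0.30, adjusted p = 0.117, with the block -0.81 and 0.0202). All 6 p53-/- libraries lay below all 6 p53+/+ libraries. Leaving out the p53+/+ alone library of 17_9, its highest, the value of Itga1 alone was -0.82 (adjusted p = 0.0521). The call was also lost without the p53-/- alone library of 17_9 (-1.29), without experiment 25_9 (-1.56) or 1_10 (-1.61) and in a fit of the 2 groups alone (-1.37, adjusted p = 0.0589), while without experiment 17_9 it held at -0.78. For Itgav, the levels given above were a log2 fold change of -0.82 ± 0.17 (adjusted p = 0.0142) in NPCs alone, and its value in co-culture was -0.25 ± 0.17 (adjusted p = 0.397). The call alone was lost without the p53+/+ alone library of 17_9 (-0.61, adjusted p = 0.0601) and without experiment 17_9 (-0.56) or 25_9 (-0.92).

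With the block, further members were called. Itga4 was higher in p53-/- both in co-culture (1.11, adjusted p = 0.000293, without the block 1.06 ± 0.32 and 0.0574) and alone (0.63, adjusted p = 0.00703, without the block 0.64 ± 0.31 and 0.228), and was above p53+/+ in all 3 experiments of each culture. In co-culture the block called Itga9, which with β1 binds tenascin, higher (0.52, adjusted p = 0.0499) and Itga8 (-0.64, adjusted p = 0.0145), Itga2b (-0.64, adjusted p = 0.0311) and Lamb2 (-0.44, adjusted p = 0.0113) lower. Without the block these were at adjusted p of 0.101, 0.0518, 0.196 and 0.168. Alone it called 5 laminins lower: Lama2 (-0.94, adjusted p = 0.00306), Lama3 (-1.02, adjusted p = 0.0336), Lama5 (-0.52, adjusted p = 0.0379), Lamb2 (-0.49, adjusted p = 0.00871) and Lamc1 (-0.51, adjusted p = 0.0259). Their adjusted p without the block ranged from 0.0625 to 0.229.

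The interaction asks whether the co-culture effect differed between genotypes. No member was called (0% of all genes higher and 0.0364% lower), 3 had an unadjusted p under 0.05 (7.1% of all genes), the block in edgeR called 0 (0.0218% higher and 0.0582% lower), and DESeq2 called 0 (0.0446% and 0.0967%). The 3 were Lamc1 (0.70 ± 0.22, adjusted p = 0.666), Lama5 (0.67 ± 0.22, adjusted p = 0.675) and Itgav, with a log2 difference of 0.57 as above. A positive value is a co-culture effect that was more positive in p53-/-. DESeq2 with the block called 1, Lamc1 (0.70, adjusted p = 0.0374), with 1.65% of all genes higher and 0.564% lower. A difference between genotypes in the co-culture effect on any integrin or laminin therefore did not pass the test of edgeR with or without the block.

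The genes around the integrins and laminins were read from 3 lists. Of 43 tested genes of the adhesion machinery, which couple integrins to actin and signaling, co-culture had 6 higher and 8 lower in p53-/- (18.8% and 17% of all genes) and 11 higher and 8 lower in p53+/+ (21.2% and 18.3%). No list was tested against these shares. Parvb, an actin-binding partner of the kinase ILK, was at 43.7 ± 8.61 CPM in p53-/- co-cultures, against 11.8 ± 1.99 CPM in p53-/- NPCs alone (1.89 ± 0.21, adjusted p = 4.00e-05). Its p53+/+ means were 35.2 ± 4.55 CPM in co-culture, against 7.99 ± 1.95 CPM alone (2.13 ± 0.21, adjusted p = 1.31e-05). FAK itself, Ptk2, was lower in p53-/- (-0.36 ± 0.09, adjusted p = 0.0104) and in p53+/+ (-0.38 ± 0.09, adjusted p = 0.00629), and its relative Ptk2b was higher in p53-/- (2.08 ± 0.53, adjusted p = 0.00913) and in p53+/+ (1.13 ± 0.43, adjusted p = 0.0497). The talin-linked Tns1 also rose in p53-/- (0.44 ± 0.12, adjusted p = 0.0147) and in p53+/+ (0.80 ± 0.12, adjusted p = 0.000338). The tetraspanin Cd9 was at 0.20 ± 0.12 in p53-/- (adjusted p = 0.197) and 0.71 ± 0.12 in p53+/+ (adjusted p = 0.000503). Between genotypes, 0 were higher and 5 lower in p53-/- co-cultures (3.24% and 4.93% of all genes), among them the tetraspanins Cd81 (-0.67 ± 0.12, adjusted p = 0.00648) and Cd151 (-0.72 ± 0.17, adjusted p = 0.0205), known to associate with integrins, Ptk2b (-1.77 ± 0.44, adjusted p = 0.0267) and Kank2 (-0.53 ± 0.13, adjusted p = 0.0233). Alone, 2 were higher and 2 lower (2.02% and 4.27% of all genes), with Cd81 (-0.64 ± 0.12, adjusted p = 0.00801) and Ptk2b (-2.71 ± 0.52, adjusted p = 0.00848) lower and Tns1 (0.56 ± 0.12, adjusted p = 0.0174) higher. Ptk2b was near the floor in p53-/- NPCs alone, at 0.436, 0.455 and 0.333 CPM, against 4.94, 2.13 and 1.22 CPM in p53+/+ NPCs alone.

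Of 23 genes of laminin partners and non-integrin laminin receptors, co-culture had 8 higher and 2 lower in p53-/- (18.8% and 17% of all genes) and 8 higher and 4 lower in p53+/+ (21.2% and 18.3%). The collagen IV chains, the other network of basement membranes, had the lowest adjusted p of the list in both genotypes. Col4a1 was at 131 ± 23.2 CPM in p53-/- co-cultures, against 35.3 ± 6.76 CPM in p53-/- NPCs alone (1.90 ± 0.17, adjusted p = 9.76e-06), and at 119 ± 11.8 CPM in p53+/+ co-cultures, against 35.1 ± 4.88 CPM in p53+/+ NPCs alone (1.76 ± 0.17, adjusted p = 1.27e-05). Col4a2 had a log2 fold change of 1.96 ± 0.16 in p53-/- (adjusted p = 3.48e-06) and 1.90 ± 0.16 in p53+/+ (adjusted p = 2.88e-06). The syndecan Sdc1 was lower in p53-/- (-0.98 ± 0.15, adjusted p = 0.000502) and in p53+/+ co-culture (-0.92 ± 0.15, adjusted p = 0.000564). The sarcoglycans Sgcb and Sgca were higher in both genotypes, Sgcb by 0.81 ± 0.13 in p53-/- (adjusted p = 0.000524) and 0.79 ± 0.13 in p53+/+ (adjusted p = 0.000418), and Sgca by 3.14 ± 0.81 in p53-/- (adjusted p = 0.00958) and 1.80 ± 0.48 in p53+/+ (adjusted p = 0.00989), all on the log2 scale. Sgca was near the floor, at 0.341 ± 0.139 CPM in p53-/- co-cultures, against 0.0346 ± 0.030 CPM in p53-/- NPCs alone. Its p53+/+ means were 1.21 ± 0.61 CPM in co-culture, against 0.342 ± 0.077 CPM alone. Between genotypes, 0 were higher and 4 lower in p53-/- co-cultures (3.24% and 4.93% of all genes) and 0 and 3 in p53-/- NPCs alone (2.02% and 4.27%). Bcam, the Lutheran glycoprotein that binds the laminin α5 chain, was at 5.82 ± 1.52 CPM in p53-/- co-cultures, against 15.5 ± 4.15 CPM in p53+/+ co-cultures (-1.41 ± 0.24, adjusted p = 0.00490), and at 2.60 ± 0.27 CPM in p53-/- NPCs alone, against 6.81 ± 1.17 CPM in p53+/+ NPCs alone (-1.38 ± 0.26, adjusted p = 0.00730). At the low levels given above, Sgca was also lower in p53-/- in co-culture (-1.80 ± 0.47, adjusted p = 0.0352) and alone (-3.14 ± 0.81, adjusted p = 0.0389). Sgca passed the low-count filter through p53+/+ co-cultures, at 1.85, 1.14 and 0.632 CPM. Its entry to the test thus depended on the group where it was high, and none of its calls stands apart from the filter. Sdc4 in co-culture (-0.68 ± 0.16, adjusted p = 0.0233) and Utrn alone (-0.74 ± 0.20, adjusted p = 0.0442) were lower in p53-/- as well.

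Of 25 genes of other integrin ligands, co-culture had 6 higher and 3 lower in p53-/- (18.8% and 17% of all genes) and 5 higher and 7 lower in p53+/+ (21.2% and 18.3%). Icam2, a counter-receptor of leukocyte integrins on endothelial cells, was at 1.09 ± 0.10 CPM in p53-/- co-cultures, against 0.0161 ± 0.028 CPM in p53-/- NPCs alone, and at 1.62 ± 0.53 CPM in p53+/+ co-cultures, against 0.0374 ± 0.033 CPM in p53+/+ NPCs alone. Icam2 passed the low-count filter through co-culture libraries, so that its co-culture calls do not stand apart from it. The junction protein F11r, which endothelial cells also make, rose in p53-/- (2.54 ± 0.45, adjusted p = 0.00121) and in p53+/+ (3.44 ± 0.49, adjusted p = 0.000186). Vcam1, a ligand of α4β1, was at 194 ± 12.4 CPM in p53+/+ co-cultures, against 90.9 ± 15.1 CPM in p53+/+ NPCs alone (1.09 ± 0.14, adjusted p = 9.12e-05), and also rose in p53-/- (0.64 ± 0.14, adjusted p = 0.00392). Tnc, the tenascin of neural stem cell niches, was lower in p53-/- (-1.43 ± 0.23, adjusted p = 0.000717) and in p53+/+ (-1.83 ± 0.24, adjusted p = 9.66e-05). Between genotypes, 0 were higher and 2 lower in p53-/- co-cultures (3.24% and 4.93% of all genes) and 2 and 2 in p53-/- NPCs alone (2.02% and 4.27%). Icam1, a ligand of β2 integrins, was lower in p53-/- in both cultures: 2.60 ± 1.26 CPM in p53-/- co-cultures, against 10.1 ± 2.04 CPM in p53+/+ co-cultures (-1.95 ± 0.29, adjusted p = 0.00208), and 1.36 ± 0.17 CPM in p53-/- NPCs alone, against 6.47 ± 0.55 CPM in p53+/+ NPCs alone (-2.24 ± 0.31, adjusted p = 0.000843). Ltbp1, which tethers latent TGFβ to matrix, was lower in p53-/- in co-culture (-0.63 ± 0.13, adjusted p = 0.00934) and alone (-0.49 ± 0.13, adjusted p = 0.0355), and Emilin1 was higher alone (0.73 ± 0.18, adjusted p = 0.0346). The interaction called 0 genes of the 3 lists in edgeR.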

How the data were processed

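Expression was measured in 12 mouse NPC libraries. The authors prepared stranded mRNA libraries, sequenced paired 100-base reads, aligned them to mm9 with TopHat2 2.0.11 and assigned them to genes with HTSeq 0.6.1, and the deposited values are raw counts per gene symbol. Neither the strand setting nor the annotation is given in the sources used here, so overlapping and antisense genes are uncertain.

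Counts were normalized by TMM, filtered with filterByExpr (13745 genes kept) and tested with the quasi-likelihood F test of edgeR 4.0.16 (R 4.3.3), with 1 coefficient per group over 12 libraries and Benjamini-Hochberg adjustment over all 13745 genes. SE is the log2 fold change over the square root of F. P-values measure the spread between libraries, for which the sources used here do not state separate animals. Exon lengths are unions from GENCODE M21 (GRCm38), not the counting annotation. Libraries with equal experiment numbers are paired by the study's key and their deviations from group means correlated in all 18 pairs (r from 0.128 to 0.618, against -0.608 to 0.241 in 36 other pairs). Same-group libraries differed by 13.2 to 62.5 times the counting variance. Alternatives were the block, DESeq2 1.42.0 with and without it, other scalings and filters, fits of the groups compared only and fits without each library or experiment. The fits were tested on simulated data. Members and lists were chosen with earlier results of these data known. Per-library CPM are given for members called with an absolute log2 fold change of at least 1, or called for p53 loss, and up to 3 called genes by adjusted p for each list and comparison. Some genes that meet these rules are not reported here. Figures were drawn with matplotlib 3.10.9.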

Additional observations from a re-analysis of the deposited data

Results flagged for a closer look

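In Itga6 and Lama5, the difference between co-culture and alone had one sign in the 3 same-experiment pairs of p53-/- and the other sign in the 3 pairs of p53+/+. For Itga6 the interaction was -0.22 on the log2 scale (edgeR, adjusted p = 0.854) and for Lama5 0.67 (adjusted p = 0.675), so that neither difference passed the test. Lama5 was at 310, 244 and 229 CPM in p53-/- co-cultures, against 198, 217 and 171 CPM in p53-/- NPCs alone, and at 204, 230 and 275 CPM in p53+/+ co-cultures, against 288, 246 and 310 CPM in p53+/+ NPCs alone. These are 2 of 27 members, and 2.71% of all 13745 genes met the same condition.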

How the results depend on the processing

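Of 25 called values of single genes, 7 kept their call in all 15 fits without a library or an experiment. Under the other alternatives 11 of 197 values were not called, and none of the 25 changed sign in any. With the replicate block the members called in co-culture against alone were 12 higher and 7 lower in p53-/- and 9 higher and 8 lower in p53+/+. For p53 loss they were 3 higher and 7 lower alone and 4 higher and 4 lower in co-culture. DESeq2 with the block gave 12 higher and 7 lower in p53-/- and 9 higher and 8 lower in p53+/+ for co-culture. It gave 4 higher and 7 lower for p53 loss alone, 3 higher and 4 lower for p53 loss in co-culture, and 1 higher for the interaction. DESeq2 gave 2 higher and 5 lower alone and 2 higher and 1 lower in co-culture for p53 loss. For co-culture in p53-/-, 2 members were lower under library size alone, under at least 10 counts in every library and with only the groups compared. With only the groups compared, p53 loss alone gave 0 higher and 1 lower, and p53 loss in co-culture 1 and 1. In co-culture 1 was higher for p53 loss under library size alone and without a filter, and 1 lower under DESeq2 size factors and at least 10 counts in every library. Without a library or an experiment, co-culture gave 3 to 8 higher and 0 to 5 lower in p53-/- and 3 to 6 higher and 2 to 7 lower in p53+/+. P53 loss gave 0 to 1 higher and 0 to 2 lower in co-culture, 0 to 2 higher and 0 to 3 lower alone, and the interaction 0 to 0 in either direction. For the other scalings and filters, the groups compared only and the fits without a library or an experiment, shares of all genes are not given here. A change in these member counts thus cannot be told apart from a change in calls over all genes. The causes were not tested. The summed endothelial level under library size alone and DESeq2 size factors, chosen after seeing the data, moved by less than its SD. Depth limits Itgb2 and Itgb4, with at most 43 counts in a library, and the 10 members removed by the filter. It also limits the listed genes Sgca, with a mean of at most 1.21 CPM in a group, Ptk2b in p53-/- NPCs alone and Icam2 in NPCs alone.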
